A study of Mus musculus with 1 sample.

Results

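The level of 8 Parkinson disease (PD) genes was examined in glia of the mouse ventral midbrain (VM), the region that loses dopamine neurons in the disease. The genes were Lrrk2, Park7, Pink1, Vps35, Atp13a2, Fbxo7, Tmem175 and Grn, chosen by name as Mendelian or risk genes of PD and found by their symbols. Each had 1 row among the 23282 rows of the table. The study cultured mixed glia from VM of outbred ICR (CD-1) mouse pups, labelled postnatal day 5, in serum-containing medium, and asked what inhibition of the kinase SGK1 does to such cells. The library described here was the control, which received the vehicle DMSO, and inhibitor-treated glia were not analysed here. Since there was 1 library, the values have no replicate error, and no difference between genes was tested.

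Inherited PD has led to a small set of cell biological routes. PINK1 is a kinase that marks damaged mitochondria for removal, and DJ-1, the product of Park7, protects cells against oxidative stress. LRRK2 phosphorylates Rab GTPases on vesicles and lysosomes, and VPS35 is the core of retromer, which returns cargo from endosomes. ATP13A2, TMEM175 and progranulin, the product of Grn, all serve the lysosome, while FBXO7 is an F-box protein that selects proteins for ubiquitination. Several of these genes are expressed in microglia and astrocytes as well as in neurons.

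Expression was given by the authors as a normalised read count for each gene, and the sum over all rows was 27569507. A gene at 10 or more was called detected. This held for 67.2% of all rows, which is the background for each count of detected genes below. The 12 microglial markers were all detected (summed value 217205, C1qa highest and Tmem119 lowest per kilobase (kb) of exon), as were the 12 astrocyte markers (60348, from Gfap to Fgfr3). The 8 mesenchymal markers were also all detected (160302, from Acta2 to Lum), as were the 8 of the oligodendrocyte lineage (32572, Sox10 lowest). Of 10 neuronal markers, 8 were detected (summed value 5482, Stmn2 highest), and Slc17a6 was listed at 0. Endothelial markers were low, with 5 of 7 detected (2679, Flt1 highest) and Tek listed at 0. Regional factors of the ventral midbrain were detected at low values (8 of 8, summed value 790), with En1 highest (98.7 per kb, value 259) and Pax2 lowest per kb (5.18 per kb, value 28).

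All 8 PD genes were detected, against 67.2% of all rows. Their values spanned 300 to 56185 with a median of 3176, beside a median of 469 for detected genes. Grn alone held 73.2% of the 76732 counted over the 8 genes, and was 2.73 times the other 7 together. For comparison between genes, each value was divided by the length of its annotated exons in kb. On this scale 5 genes stood above the detected median of 102 per kb (Grn, Park7, Atp13a2, Pink1 and Vps35), and 3 stood below it (Tmem175, Fbxo7 and Lrrk2). The median of the 8 genes was 681 per kb.

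**Figure D1:**
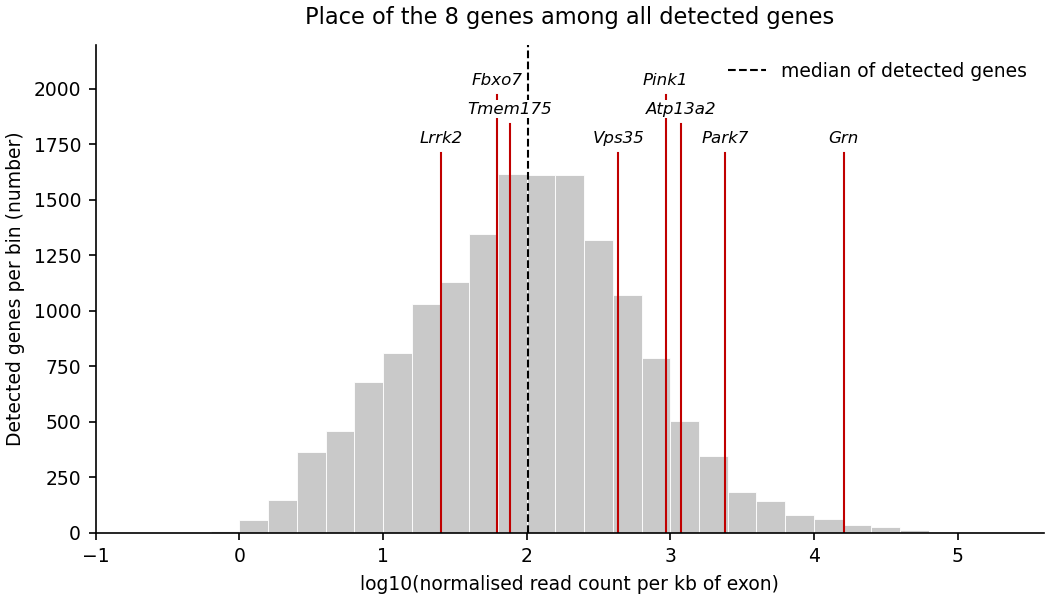
Histogram of 15464 detected genes with a known exon length, by log10 of the normalised read count per kb of exon, with a red line at each of the 8 PD genes and a dashed line at the median of detected genes (102 per kb). Grn lies in the right tail, 4 more genes lie right of the median, and Tmem175, Fbxo7 and Lrrk2 lie left of it.

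The order per kb of exon was Grn, Park7, Atp13a2, Pink1, Vps35, Tmem175, Fbxo7 and Lrrk2, and Grn was 638 times Lrrk2. The steps between neighbours were uneven. The largest were from Grn to Park7 (6.72 times) and from Vps35 to Tmem175 (5.72 times). The smallest steps were from Tmem175 to Fbxo7 (1.23 times) and from Atp13a2 to Pink1 (1.28 times). Without replicates it cannot be said whether such neighbours differ. Pink1 and Vps35 changed places when lengths were taken from the coding transcript or the coding sequence, because the annotated exons of Vps35 (8.90 kb) include long stretches outside its 3474-base coding transcript.

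**Figure D2:**
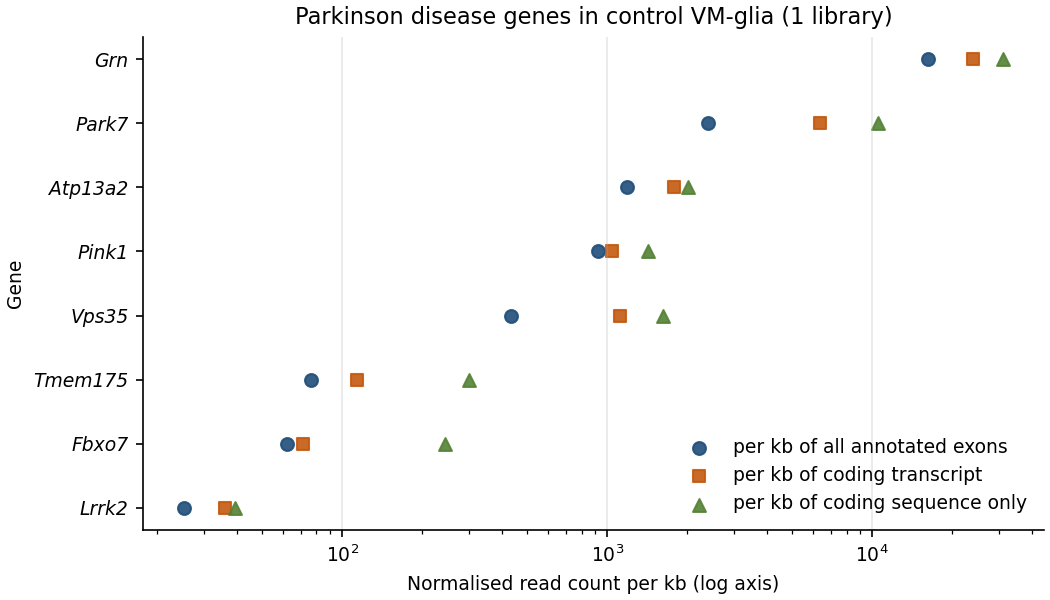
Normalised read count per kb on a log axis for the 8 PD genes in 1 control library, with the length taken as all annotated exons (circles), the transcript with the longest coding sequence (squares) or the coding sequence alone (triangles). Grn stays highest and Lrrk2 lowest with each length, and Pink1 and Vps35 exchange places.

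Grn encodes progranulin, a secreted protein that is carried to lysosomes and cut there into granulins, and microglia are known for high expression of it. The gene lies on chromosome 11 (102430315 to 102437048 in GRCm38, plus strand), with 13 exons in its coding transcript. Its value was 56185, or 2038 per 1000000 of the sum, which placed it at rank 30 of all rows. Per kb of exon it stood at 16173, above 99.5% of detected genes and 158 times their median. This was in the range of abundant housekeeping genes. The 8 reference genes had a median of 11754 per kb, and the highest of them, the cytoskeletal actin gene Actb, was 2.45 times Grn per kb. The microglial complement gene C1qa was 1.94 times Grn per kb. In a bulk culture, fewer cells of a type and less RNA per cell cannot be told apart, and how much each cell type contributed to Grn was not tested.

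Partners of progranulin were also abundant. All 12 genes of this list were detected, with a median of 3311 per kb, and 11 were above the detected median. Ctsd, a lysosomal protease, was highest (value 300496, 127816 per kb) and Psap was also among the highest (27943 per kb). Prosaposin, the product of Psap, binds progranulin and assists its transport to lysosomes, and Psap was 1.73 times Grn per kb. The sorting receptor gene Sort1 was much lower, at 386 per kb, so that Grn exceeded it 41.9 times. The lowest of the list was Slpi, an inhibitor of progranulin cleavage outside the cell, with a value of 35.

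Park7 lies on chromosome 4 (150897133 to 150914437, minus strand) and encodes DJ-1, a small protein that senses oxidation. Its value was 5962, or 216 per 1000000, at rank 732. Per kb of exon it was 2405, above 96.2% of detected genes and second among the PD genes. By value alone it came after Atp13a2 (7099). The shorter annotated exons of Park7 (2479 bases, beside 6000 for Atp13a2) put it ahead per kb of exon. The superoxide dismutase gene Sod1 was at nearly the same level per kb of exon (1.03 times Park7) and at 2.02 times per kb of coding sequence.

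Antioxidant genes around DJ-1 and the stress factor NRF2 were detected in 14 of 14 cases, with 12 above the detected median per kb. Hmox1, a heme-degrading enzyme induced by oxidative stress, was highest at 5516 per kb (value 9658). Prdx1, a peroxidase, followed at 4839 per kb (value 14725), and Sod1 at 2475 per kb (value 9826). Nqo1, a quinone reductase, was the lowest at 56.7 per kb (value 88).

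Pink1 lies on the same chromosome (138313409 to 138326307, minus strand). Its value was 2477, or 89.8 per 1000000, and its 927 per kb of exon was above 90.2% of detected genes. Of the 25 mitophagy genes set beside it, all were detected and 24 were above the detected median per kb, with a list median of 336. The highest were Sqstm1, an autophagy adaptor (6645 per kb, value 22302), Tomm7, a subunit of the outer membrane import complex that holds PINK1 (2841 per kb, value 3196), and Vdac1, the porin of the outer membrane (1869 per kb, value 4897). Pink1 was 6.10 times Usp30, a deubiquitinase that opposes mitophagy, and 2.40 times per kb of coding sequence. The exception at the low end was the adaptor Calcoco2, with a value of 21. The annotated microRNA Gm27646 lies within Pink1 exons on the same strand and covers 110 of their bases.

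Vps35 lies on chromosome 8 (85260392 to 85299802, minus strand), with 17 exons in its coding transcript. Its value was 3875, or 141 per 1000000, and it stood at 435 per kb of exon, above 80.4% of detected genes. The start of the gene overlaps Orc6 on the opposite strand by 171 exonic bases, which is 1.92% of the Vps35 exons. Retromer binds cargo as a trimer with VPS29 and 1 of the VPS26 paralogs. Vps26a had a value of 3026, Vps29 of 2362 and Vps26b of 1730. Vps35 was 0.412 times Vps26a per kb of exon and 0.578 times per kb of coding sequence, and the 2 were at nearly the same level per kb of coding transcript. Vps26a exceeded Vps26b 3.12 times per kb of exon and 1.64 times per kb of coding sequence. The order of Vps35 and Vps29 turned with the length used, from 1.13 times in favour of Vps35 over all exons to 0.383 times over coding sequence. Likewise Vps35 was 1.28 times Vps26b over all exons and 0.945 times over coding sequence.

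The wider retromer and WASH list, whose products sort cargo and build actin on endosomes, was detected in 20 of 20 genes, with 18 above the detected median and a list median of 464 per kb. It was led by Rab7, the GTPase of late endosomes (6277 per kb, value 16384), and by the sorting nexins Snx3 (4316 per kb, value 6099) and Snx2 (2426 per kb, value 6555). The lowest was Tbc1d5, which inactivates RAB7 (78.7 per kb, value 1049).

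Atp13a2 lies on chromosome 4 (140986873 to 141007330, plus strand), between Pink1 and Park7, and encodes a lysosomal polyamine exporter. It had the second highest value of the 8 genes, 7099 or 257 per 1000000, and 1183 per kb of exon placed it above 92.1% of detected genes. Its relatives among the P5-type ATPases were lower. Atp13a1, which acts in the endoplasmic reticulum, was at 270 per kb (value 1057). Atp13a3 was at 127 per kb (value 1265), Atp13a4 had a value of 74, and Atp13a5 was listed at 0. Atp13a2 thus exceeded Atp13a1 4.38 times and Atp13a3 9.30 times per kb, and it was also higher than both per kb of coding transcript and of coding sequence.

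Tmem175 encodes a potassium and proton channel of the lysosomal membrane. It lies on chromosome 5 (108629770 to 108648782, plus strand). Its value was 451, or 16.4 per 1000000, and at 76.1 per kb it was above 43.2% of detected genes. All 12 lysosomal membrane genes on the list were detected, with a median of 162 per kb, and 7 were above the detected median, while 5 channel or transporter genes were below it. Lamp1, the major membrane glycoprotein, was at 13348 per kb (value 35706), Lamp2 at 884 per kb (value 8445) and the osmosensitive channel gene Tmem63a at 359 per kb (value 1612). The lowest was the calcium channel gene Mcoln3 (8.08 per kb, value 28). Among the other channels, Mcoln1 was 1.46 times Tmem175 per kb of exon and 3.56 times per kb of coding transcript, and Tmem175 was 0.296 times the two-pore channel gene Tpcn1 per kb of exon.

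The Tmem175 locus holds neighbours that bear on its count. At its 3′ end, Tmem175 shares 2090 exonic bases with Dgkq on the opposite strand, which is 35.3% of its annotated exons. The strand setting of the counting is not stated, so reads there could have been given to either gene or to none. Dgkq itself had a value of 404. At the 5′ end, the annotated start of Gak lies 15 bases away on the opposite strand. Gak encodes a kinase that uncoats clathrin vesicles and is a PD risk gene at this same locus, and its value was 3172. Per kb of exon, Gak was 6.48 times Tmem175 and per kb of coding sequence 2.69 times.

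**Figure D3:**
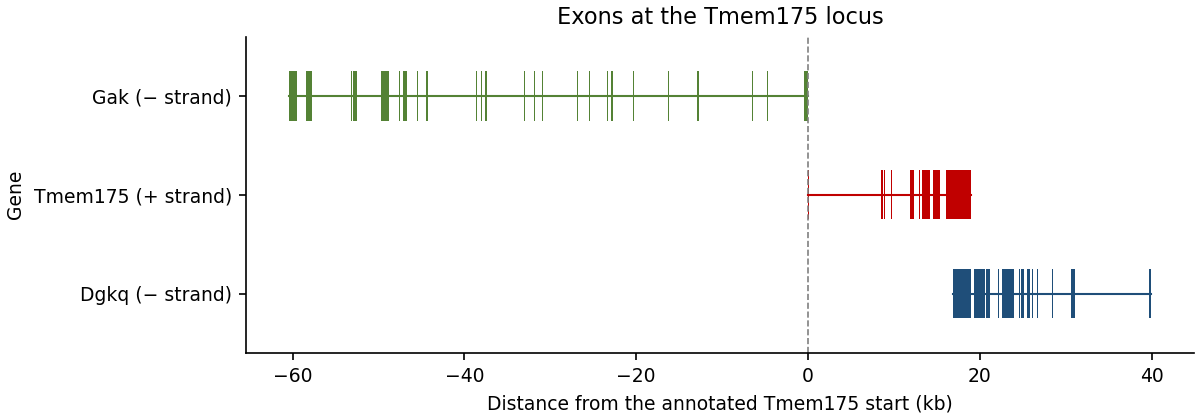
Exons (boxes) of Gak, Tmem175 and Dgkq, each drawn on its own line with its strand, against the distance in kb from the annotated Tmem175 start. Gak begins 15 bases before Tmem175 and runs the other way, and the last exon of Tmem175 overlaps an exon of Dgkq over 2090 bases.

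Fbxo7 lies on chromosome 10 (86021972 to 86051873, plus strand). Its value was 383, or 13.9 per 1000000, and its 62.0 per kb of exon was above 38.7% of detected genes. Its exons overlap the antisense gene A230060F14Rik over 314 bases (5.08% of Fbxo7 exons), a gene without a row. FBXO7 joins the SCF ubiquitin ligase through SKP1, and the core of that ligase was far more abundant. Skp1a was at 4738 per kb (value 10475), 76.4 times Fbxo7, and the scaffold gene Cul1 at 644 per kb (value 2602). The F-box gene Fbxo22 followed at 488 per kb (value 1168). All 10 genes of this list were detected, with a median of 231 per kb, and the lowest was the cell cycle kinase Cdk6, which FBXO7 binds (10.6 per kb, value 148).

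Lrrk2 was the lowest of the 8 genes on each scale. It lies on chromosome 15 (91673175 to 91816120, plus strand) and has 51 exons in an 8275-base coding transcript. The value of 300 was 10.9 per 1000000, and 25.4 per kb of exon was above 23.2% of detected genes. The paralog Lrrk1, a kinase of similar build, was 3.88 times higher per kb (98.4 per kb, value 1014), 3.75 times per kb of coding transcript and 4.24 times per kb of coding sequence.

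The genes set beside LRRK2 stood above the kinase itself per kb of exon, as did most detected genes. Lrrk2 itself exceeded only 23.2% of detected genes. The list held Rab substrates, their effectors and phosphatase, the paralog Lrrk1, and Arl6ip1, whose link to LRRK2 is uncertain. All 18 were detected and 16 were above the detected median, with a list median of 422 per kb, and the lowest of them per kb was Rab3d (75.1 per kb, value 315). By value alone Rab3a, at 246, was below Lrrk2. Rab5c, a GTPase of early endosomes, led at 3818 per kb (value 8377). The substrates Rab10 and Rab8a followed at 1293 per kb (value 4544) and 1127 per kb (value 5270). Rab10 was thus 51.0 times Lrrk2 per kb of exon and 191 times per kb of coding sequence. For Rab8a these ratios were 44.4 and 214, so the order of the 2 substrates turned with the length used.

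A further 20 genes linked to PD by family studies or association were all detected, and 14 were above the detected median per kb. Their median of 222 per kb lay below that of the 8 genes. Psap (value 76675) and the lysosomal glycoprotein gene Gpnmb (13718 per kb, value 89356), which are also on the list of progranulin partners, were highest. The mitochondrial gene Chchd2 was next at 2316 per kb (value 5256). The lowest was Dnajc6, which encodes the neuronal clathrin uncoating factor auxilin (value 15, 2.54 per kb). Gak, the broadly expressed relative of auxilin, stood at 493 per kb.

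**Figure D4:**
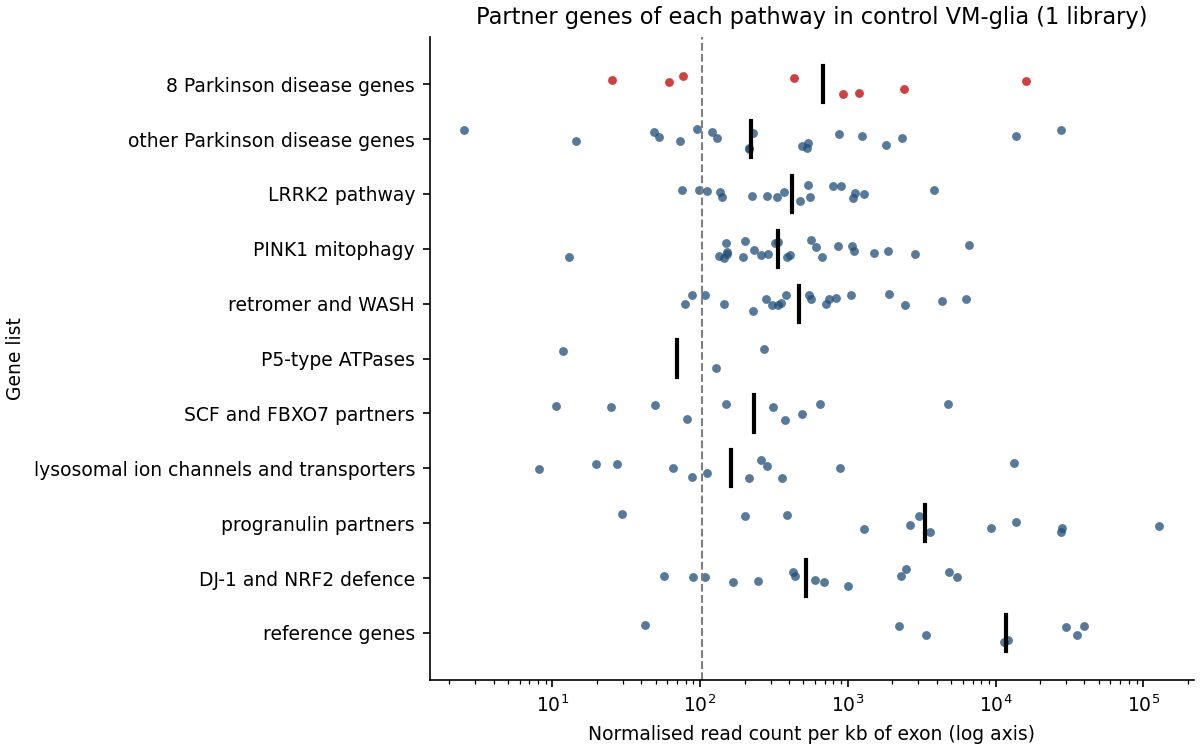
Normalised read count per kb of exon on a log axis for the 8 PD genes (red) and for the genes of each pathway list and the reference genes (blue), 1 point per gene, with the list median as a black bar and the median of detected genes as a dashed line. Progranulin partners and reference genes lie highest, P5-type ATPases lowest by median, and Atp13a5 at 0 is not drawn but counts in its list's median.

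Promoter sequence was examined as a feature that the choice of genes did not use. The motifs, however, were chosen after values or sequences were seen, so their counts are descriptive and not an independent test. RefSeq windows of 300 bases (250 before to 50 after the start) were at hand for 7 of the 8 genes, all but Vps35. Fbxo7 had a second window, so the 7 genes had 8 windows. Counts per gene are thus set beside shares of single windows. All had a GC content of at least 56.3%, the lowest value among them, and 12936 of all 32851 windows reached it. The median over all windows was 52.7%. None of the 7 genes held the TATA box letters TATAAA on either strand, which 4.04% of windows with a GC content of 56.3% or more held. A 10-base form of the site of nuclear respiratory factor 1 (NRF1), with any base at the sixth position, occurred on either strand in 4 of the 7 genes. It read GCGCAGGCGC in Park7, Fbxo7 and Tmem175, GCGCCTGCGC at another place in Fbxo7 and GCGCTTGCGC in Pink1. Such a match occurred in 4.60% of all windows, and in 9.79% of the windows with a GC content of 56.3% or more. The SP1 box GGGCGG occurred in 6 of the 7, beside 72.1% of windows with such GC content. The E-box CACGTG, core of the element shared by many lysosomal genes, was found in 1 of the 7 genes, in a second window of Fbxo7, beside 10.4% of windows with such GC content. The antioxidant response letters TGACNNNGC were found in Tmem175 alone (15.2% of windows with such GC content) and CCAAT in Grn alone (33.1%). These matches are letters in a window, and binding was not measured.

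The 130 bases before the RefSeq start are shown for the 3 genes in which the NRF1 match lay upstream of that start. They run 5′ to 3′ on the strand of the gene, with the match in capitals (build GRCm38.p6). RefSeq starts differ from those of the gene coordinates given above, which are from GENCODE. By those coordinates the Park7 stretch lies inside the gene, which starts at 150914437. The Pink1 match likewise lies just after the GENCODE start at 138326307. Counted from the RefSeq start, the match in Pink1 ends at the base before it. In Park7 the match begins at position -128 and in Fbxo7 matches begin at -126 and -61. The Tmem175 match begins at position 37 after the RefSeq start and is not printed.
Pink1, chr4:138326297-138326426, minus strand: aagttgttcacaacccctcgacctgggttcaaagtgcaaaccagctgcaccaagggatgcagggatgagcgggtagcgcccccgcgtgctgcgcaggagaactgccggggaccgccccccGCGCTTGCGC
Park7, chr4:150909922-150910051, minus strand: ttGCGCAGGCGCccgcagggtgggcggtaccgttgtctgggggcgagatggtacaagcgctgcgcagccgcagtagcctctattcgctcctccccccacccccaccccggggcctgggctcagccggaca
Fbxo7, chr10:86021799-86021928, plus strand: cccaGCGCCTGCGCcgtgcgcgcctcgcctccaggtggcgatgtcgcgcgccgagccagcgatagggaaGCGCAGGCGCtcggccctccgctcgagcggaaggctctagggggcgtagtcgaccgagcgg
The genes with this match ran from Park7 at 2405 to Fbxo7 at 62.0 per kb of exon, and neither Grn, the highest gene, nor Lrrk2, the lowest, had it.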

How the data were processed

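RNA-seq of 1 control library of VM-glia was analysed. Total RNA (Trizol) was turned into a library with the SMARTer mRNA kit. Per the study's methods, reads were trimmed at a quality of 20, mapped to GRCm38/mm10 with STAR, and counted on exons of RefSeq Release 105 genes with HTSeq-count. The methods also mention FPKM values, and the submitters' processing notes name TopHat and edgeR, with no role given. The deposited values are whole numbers that the authors describe as normalised read counts, by a method not given in the sources used here, so they were treated here as a score rather than as raw reads. They look like read counts in size, but if the unknown normalisation had included length, dividing by exon length would correct for it a second time. Sequencing depth is unknown, and no interval or detection floor was computed. Strand and multi-mapping settings are also not given.

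Values were divided by their sum (27569507), and by exon length from GENCODE release M21 (GRCm38), to which 98.2% of rows were matched. Where a list symbol had no row, an older symbol from RefSeq was used (6 genes). BLAST 2.17.0 found no transcript of another gene with 100 or more bases at 90% identity to a coding transcript of the 8 genes, other than the overlapping genes Orc6, Dgkq, A230060F14Rik and Gm27646. The exons of Park7, Atp13a2 and Lrrk2 overlap no other annotated gene, and those of Grn overlap Fam171a2 on the opposite strand by 68 bases. Python 3.11.15, numpy 2.4.6 and pandas 2.3.3 were used. The percentile step was tested on simulated data, and the merging of exon intervals on a few fixed intervals.

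The named genes were the 8 PD genes and, of each pathway list, the 3 highest, the lowest and those listed at 0 (every member of a list with up to 5 genes). Some genes that this rule selects are left out of the text. Of marker lists the highest and lowest were named, and the lowest of the neuronal and endothelial lists were those at 0. Other partners (Sort1, Usp30, Vps26a, Vps26b, Vps29, Lrrk1, Mcoln1, Tpcn1, Gak, Dgkq, Orc6, C1qa and Actb as references) and the promoter motifs were chosen after values or sequences were seen. The members and lists were chosen with earlier results of these data known. Alternatives were other minima for detection, other totals and other lengths.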

Additional observations from a re-analysis of the deposited data

How the results depend on the processing

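The 8 PD genes were detected at minima of 1, 3, 10 and 100. At 10 the share of all rows was 67.2%, and the shares at the other minima are not given here. All 8 kept their place in the order with the longest transcript as length. Totals without Rn45s or without the 10 highest genes divide every gene by the same number, so they cannot change the order. With the coding length, and with the longest transcript of the longest coding sequence (added after the data were seen), 6 kept it, since Pink1 and Vps35 exchanged places. The ratio of Grn to Lrrk2 was 638 over all exons, 662 with the longest transcript as length and also with the coding transcript, and 786 with the coding length. Without Grn, an alternative added after the data were seen, the ratio of the highest to the lowest gene was 94.9. The median of the 8 genes stood above 89.7% of detected genes, and above 91.2% with a minimum of 1, 86.6% with a minimum of 100, 86.6% with values per kb of exon, 86.1% with the mean of log2(value + 1) and 86.3% without Grn. The count of detected genes per list stayed within 1.5 times its value in 30 of 30 checks at minima of 1, 3 and 100. These checks could hardly fail at lower minima, since 131 of 132 pathway genes were already detected at 10. At a minimum of 100 the P5-type ATPases went from 3 to 2 detected genes, at the edge of that range. No paired analysis was possible because there was 1 library. The lack of a replicate and the unknown normalisation limit all values to this library.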
